A study of Mus musculus with 2 samples.

Results

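The 10 genes described here are genes of the pericentral hepatocytes, the liver cells around the central vein, whose expression there is known to depend on Wnt signalling. They were chosen by symbol, 10 of the 31053 genes in the deposited matrices, and each symbol matched 1 gene row. Glul, Slc1a2, Oat and Rhbg act on ammonia, glutamate and ornithine. Axin2, Lgr5 and Tbx3 are Wnt target genes, and Cyp2a5, Cyp1a2 and Cyp2e1 encode cytochrome P450 enzymes.

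The samples were liver cells of C57BL/6 mice kept for 6.5 weeks on chow or on a NASH diet (non-alcoholic steatohepatitis), which the labels describe as high in fructose, fat and cholesterol. Neither group carried any other labelled allele or agent, and the sources used here give neither the number nor the age of the mice. Collagenase digestion freed the cells, which were recovered on Percoll, a density medium, at 90% and 25%, so the densities collected set which hepatocytes were sampled. Each diet was 1 library, so no difference between diets could be tested or set against a spread between replicates. All intervals are exact 95% intervals that cover counting error only.

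The central vein endothelium secretes Wnt ligands and R-spondins, which stabilise beta-catenin in the neighbouring hepatocytes. Beta-catenin then acts with TCF/LEF factors to switch on pericentral genes. Periportal hepatocytes, which receive little of this signal, carry the urea cycle and gluconeogenesis. The innermost pericentral cells take up the ammonia that escaped the urea cycle and fix it as glutamine, and the wider pericentral zone carries much of the drug metabolism of the liver.

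Hepatocytes were taken by a marker gate that used none of the 10 genes. It required at least 200 genes, at least 5000 UMIs (unique molecular identifiers, each standing for 1 captured RNA molecule), at most 30% mitochondrial UMIs, at least 2% of UMIs from 10 hepatocyte markers such as Alb and Apob, and at most 0.5% from endothelial, Kupffer, leukocyte and mesenchymal markers. This kept 1970 of 7359 chow barcodes (26.8%) and 1049 of 5881 NASH diet barcodes (17.8%), with 50900932 and 22581092 UMIs. The gated cells carried the hepatocyte markers at a median of 6.89% and 7.80% of UMIs, and the other classes' markers reached at most 0.215% and 0.142% in any cell. The median depth was 25925 UMIs for chow and 20674 for the NASH diet. The median mitochondrial share was 18.5% and 23.5%, and 235 chow and 532 NASH diet barcodes lay between 25% and 35%, near the limit. The libraries shared 69 cell barcodes, 1 of them among the gated hepatocytes.

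The promoters of the genes are shown first, since TCF/LEF factors bind a short word that can be searched for. RefSeq promoters (the 250 bases before the annotated start, build GRCm38.p6) matched 7 of the 10 genes, all but Rhbg, Lgr5 and Tbx3. The words searched, on both strands, were the word CTTTGAA, the word CTTTGAT, the word CTTTGTA and the word CTTTGTT. At least 1 word stood in 3 of the 7, and in 4874 of all 32851 promoters (14.8%). Those 3, and the promoter of Cyp2a5, the gene with the largest ratio between the diets, are printed 5′ to 3′ with the word in capitals. The first capital, as printed, lies 207 bases before the start in Slc1a2, where the word reads on the opposite strand. It lies 244 bases before the start in Cyp1a2, also with the word on the opposite strand, and 135 in Cyp2e1, with the word on the gene's strand. A match describes letters only. The GENCODE spans of the genes and the RefSeq starts differ, so the distances to the start depend on the annotation. The Slc1a2 window (chr2:102706188-102706437, plus strand) lies inside the GENCODE span of the gene, and the windows of the other 3 overlap its edge. Cyp1a2 is at chr9:57683656-57683905 (minus strand), Cyp2e1 at chr7:140763569-140763818 (plus strand) and Cyp2a5 at chr7:26835089-26835338 (plus strand), where none of the 4 words stood.
Slc1a2: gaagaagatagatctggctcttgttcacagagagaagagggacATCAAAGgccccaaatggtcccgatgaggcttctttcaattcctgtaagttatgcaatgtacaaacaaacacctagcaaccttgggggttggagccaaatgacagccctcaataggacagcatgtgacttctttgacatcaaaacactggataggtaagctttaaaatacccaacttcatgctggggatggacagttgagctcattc
Cyp1a2: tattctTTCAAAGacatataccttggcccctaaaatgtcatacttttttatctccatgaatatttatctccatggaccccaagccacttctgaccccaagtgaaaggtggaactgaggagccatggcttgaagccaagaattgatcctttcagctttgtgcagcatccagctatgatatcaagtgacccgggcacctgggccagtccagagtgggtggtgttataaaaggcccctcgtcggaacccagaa
Cyp2e1: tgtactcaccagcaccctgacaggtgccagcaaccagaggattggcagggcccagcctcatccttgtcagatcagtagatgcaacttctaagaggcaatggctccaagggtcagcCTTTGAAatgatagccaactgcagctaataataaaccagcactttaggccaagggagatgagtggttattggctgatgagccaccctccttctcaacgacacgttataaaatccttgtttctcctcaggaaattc
Cyp2a5: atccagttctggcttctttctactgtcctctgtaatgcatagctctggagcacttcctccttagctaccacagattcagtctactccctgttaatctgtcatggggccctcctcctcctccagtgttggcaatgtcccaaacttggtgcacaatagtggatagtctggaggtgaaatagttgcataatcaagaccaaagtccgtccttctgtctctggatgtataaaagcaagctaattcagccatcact

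All 10 genes had a higher summed level in the NASH diet hepatocytes than in the chow hepatocytes. For 5 of them, Glul, Slc1a2, Oat, Rhbg and Cyp2a5, the log2 ratio reached 1. Levels are given as CPM, UMIs per 1000000 UMIs summed over the hepatocytes, and the log2 ratio is the difference of log2(CPM + 1), NASH diet minus chow. Of the 11555 genes with at least 20 UMIs over both libraries, 2.61% reached 1, 2.0% reached -1 or less and 62.1% were above 0. The median log2 ratio was 0.99 over the 10 genes and 0.09 over all genes tested. The 5 genes became 10 with a mitochondrial limit of 20%, 3 with a limit of 80%, 3 as a mean over cells, 4 with a pseudocount of 10 CPM, and 1 among cells with 25% to 30% mitochondrial UMIs, where 4 were at -1 or less. That last range was chosen after the data had been seen. The shares over all genes were not counted in these other settings, so these counts have no share beside them.

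**Figure D1:**
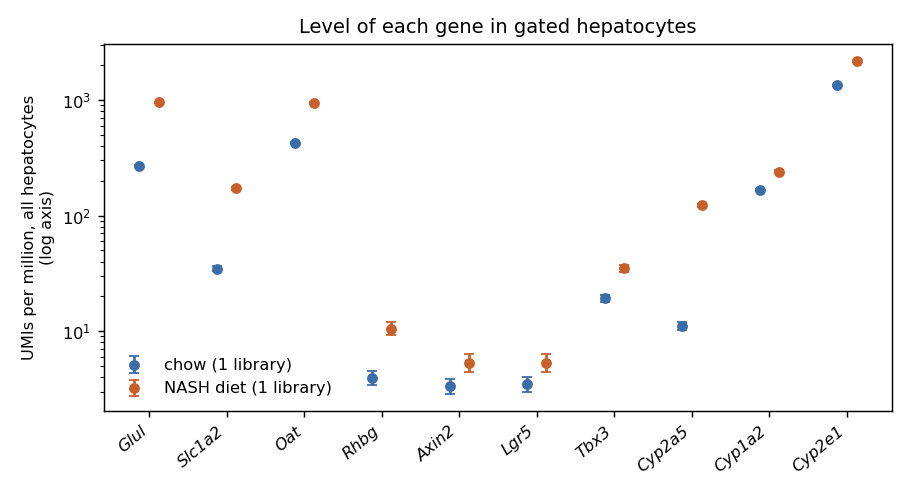
Level of each of the 10 genes in gated hepatocytes (CPM, log axis), 1 library per diet, with exact 95% Poisson intervals of the counts. The NASH diet point lies above the chow point for all 10 genes, farthest for Cyp2a5 (11.1 and 123) and Slc1a2 (34.8 and 172).

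Glul (ENSMUSG00000026473, chr1:153899944-153909723, GRCm38, plus strand) encodes glutamine synthetase, the enzyme that joins ammonia to glutamate. It had 13764 UMIs in the chow hepatocytes, 270.4 CPM (266 to 275), against 21552 UMIs in the NASH diet hepatocytes, 954 CPM (942 to 967). The log2 ratio was 1.82, a 3.53-fold difference. The share of cells with a Glul UMI did not follow that order. With each cell thinned to 5000 UMIs it was 26.6% (24.7 to 28.6) for chow and 26.7% (24.0 to 29.5) for the NASH diet, and without thinning 63.9% and 49.7%. The 10% of cells richest in Glul held 84.7% of its chow UMIs and 95.1% of its NASH diet UMIs, so most Glul RNA sat in few cells of both libraries.

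Slc1a2 (ENSMUSG00000005089, chr2:102658659-102790784, plus strand) encodes the glutamate transporter GLT-1. Its level was 34.8 CPM (33.2 to 36.5) in chow, from 1772 UMIs, against 172 CPM (167 to 177) in the NASH diet, from 3882 UMIs, a log2 ratio of 2.27. Unlike Glul, its share of cells differed too: a UMI at 5000 was found in 4.31% (3.46 to 5.31) of chow hepatocytes against 11.2% (9.31 to 13.2) in the NASH diet. Unthinned, the shares were 6.35% and 12.7%. The median positive cell held 11 Slc1a2 UMIs in chow, against 23 in the other library, before thinning.

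Oat (ENSMUSG00000030934, chr7:132557478-132576398, minus strand) encodes ornithine aminotransferase, which makes glutamate semialdehyde from ornithine. It stood at 426 CPM (419.9 to 431) in chow against 941 CPM (929 to 954) in the NASH diet, a log2 ratio of 1.14. Oat was read in a wider set of cells than Glul or Slc1a2 at 3 or more UMIs of 5000, in 21.5% of chow and 20.5% of NASH diet hepatocytes, and these shares overlapped (19.7 to 23.4 and 18.1 to 23.1). Rhbg (ENSMUSG00000104445, chr3:88242874-88254709, minus strand), an ammonium transporter, was scarce, with 199 UMIs (3.91 CPM, 3.39 to 4.49) in chow and 238 UMIs (10.5 CPM, 9.24 to 12) in the NASH diet. Its log2 ratio was 1.23, 1.43 with no pseudocount (1.15 to 1.71) and 0.56 with a pseudocount of 10 CPM, under which it no longer reached 1.

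The Wnt target genes of the 10, Axin2, Lgr5 and Tbx3, had log2 ratios below 1. Axin2 (ENSMUSG00000000142, chr11:108920349-108950783, plus strand), a scaffold that limits beta-catenin, had 169 UMIs (3.32 CPM) in chow and 120 UMIs (5.31 CPM) in the NASH diet, a log2 ratio of 0.55. Lgr5 (ENSMUSG00000020140, chr10:115450311-115587780, minus strand), a receptor for R-spondins, had 177 UMIs (3.48 CPM) and 120 UMIs (5.31 CPM), a log2 ratio of 0.50. With no pseudocount the log2 ratio was 0.68 (0.33 to 1.02) for Axin2, an interval that includes 1, and 0.61 (0.27 to 0.95) for Lgr5. The shares of cells with a UMI at 5000 overlapped between the diets for both: 1.37% and 1.43% for Axin2, and 1.83% and 1.91% for Lgr5. These shares rest on 15 to 36 cells each. Tbx3 (ENSMUSG00000018604, chr5:119670669-119684724, plus strand), a T-box transcription factor, stood at 19.2 CPM (18.0 to 20.5) in chow, against 34.9 CPM (32.5 to 37.5) in the other library, a log2 ratio of 0.83, with overlapping shares of 9.04% (7.81 to 10.4) and 11.1% (9.22 to 13.1).

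Among the cytochromes, Cyp2a5 had the largest ratio of the 10 genes. Cyp2a5 (ENSMUSG00000005547, chr7:26835305-26843548, plus strand), known as coumarin 7-hydroxylase, had 563 UMIs in chow, 11.1 CPM (10.2 to 12), against 2768 UMIs in the NASH diet, 123 CPM (118 to 127). The log2 ratio was 3.36, an 11.1-fold difference, at the 99.9th percentile of all genes tested. The share of cells with a UMI at 5000 was 3.76% (2.96 to 4.69) and 17.6% (15.4 to 20.1), and unthinned 10.1% and 25.1%. Cyp2a5 was also the gene whose log2 ratio stayed at 1 or more in 14 of 14 alternative settings, from 1.15 to 4.25. Its close relative Cyp2a4, whose transcript was identical to that of Cyp2a5 at 98.2% of 1739 aligned positions, was left with 4 UMIs in chow, against 1 in the other library. Reads common to both genes cannot be assigned to either, so the split between Cyp2a5 and Cyp2a4 is uncertain.

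Cyp1a2 (ENSMUSG00000032310, chr9:57676937-57683703, minus strand), the caffeine-metabolising P450, had a log2 ratio below 1. Its level was 167 CPM (164 to 171) in chow against 239 CPM (233 to 246) in the NASH diet, a log2 ratio of 0.52. Its share of cells with a UMI at 5000 was 35.9% (33.8 to 38.1) in chow and 29.7% (27.0 to 32.6) in the NASH diet. The share was thus lower in the NASH diet with intervals apart, against the order of the level. How many of all genes had a lower share with intervals apart was not counted. With the mitochondrial limit at 20% the share was 7.46 percentage points higher in the NASH diet. Cyp2e1 (ENSMUSG00000025479, chr7:140763739-140774987, plus strand), which oxidises ethanol and other small molecules, stood at 1341 CPM (1331 to 1351) in chow, against 2172 CPM (2153 to 2191) in the other library, a log2 ratio of 0.69. Its shares were 49.4% (47.2 to 51.6) and 49.6% (46.5 to 52.6). Cyp1a1, the relative of Cyp1a2, had 2 UMIs and 1 UMI.

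Over the 10 genes, then, the share of cells at 5000 UMIs was higher in the NASH diet with intervals apart for 2, Slc1a2 and Cyp2a5, against 13.1% of the 11555 genes tested. That count was 7 with a mitochondrial limit of 20%, 4 with at least 10000 UMIs per cell or with cells thinned to 10000 UMIs, and 0 among cells with 25% to 30% mitochondrial UMIs. The share over all genes was not counted in those settings. The Cyp1a2 share was lower in the NASH diet with intervals apart, a direction that was not counted over all genes. A UMI in a cell can come from free RNA, so the shares were set beside endothelial cells (52 chow and 45 NASH diet cells, median depth 5005.5 and 6503 UMIs), with all cells thinned to 1000 UMIs and 7 shallower chow cells left out. Slc1a2 was in 0 of 45 chow endothelial cells (a count of 0 leaves room for 6.67%). It was in 1 of 45 endothelial cells of the NASH diet (2.22%), against 2.69% and 6.58% of hepatocytes. Cyp2a5 was likewise in 0 and 1 of 45 endothelial cells, against 1.27% and 6.86% of hepatocytes. Cyp2e1 was in 17.8% and 8.89% of endothelial cells against 38.5% of hepatocytes in both libraries. Oat was in 8.89% and 13.3% of endothelial cells against 18.8% and 19.7% of hepatocytes. Glul was in 35.6% and 31.1% of endothelial cells against 10.2% and 12.4% of hepatocytes. Endothelial cells therefore give no background for Glul.

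Glul counts per hepatocyte had a long upper tail in both libraries. Of the cells thinned to 5000 UMIs, 3 or more Glul UMIs were found in 90 of 1970 chow hepatocytes, 4.57% (3.69 to 5.59), and in 110 of 1049 NASH diet hepatocytes, 10.5% (8.70 to 12.5). These are called Glul-high here, a range of a count and not a cell type: 76 chow and 34 NASH diet cells had exactly 2 Glul UMIs and 26 and 12 had exactly 3. In the tail, 1.22% of chow and 4.0% of NASH diet cells had 40 or more. The median Glul-high cell of chow held 13 Glul UMIs, against 33 in the NASH diet. Cells with exactly 1 were the more frequent in chow, 18.2% against 13.0%.

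**Figure D2:**
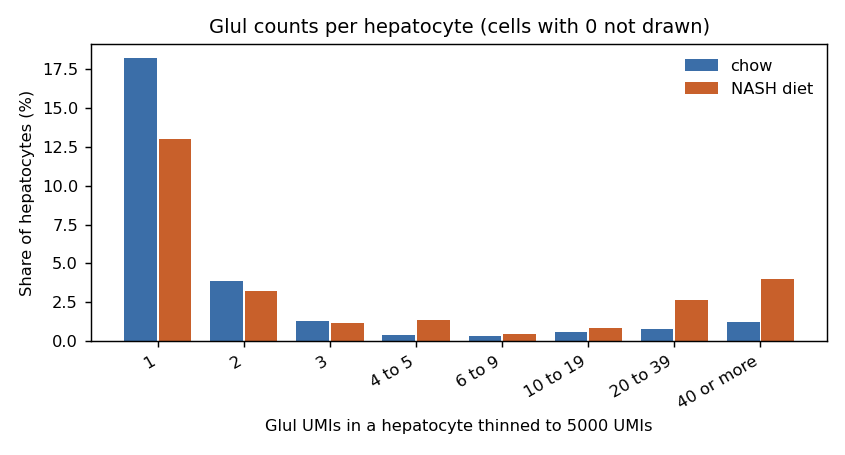
Share of hepatocytes (%) by their number of Glul UMIs after thinning to 5000 UMIs, 1 library per diet; the bars start at 0 and cells without a Glul UMI (73.4% of chow, 73.3% of NASH diet) are not drawn. Chow bars are the taller at 1 UMI (18.2% and 13.0%), NASH diet bars at 40 or more (1.22% and 4.0%).

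The Glul-high share moved with the cut and with the mitochondrial share of the cells. At 6 or more UMIs it was 2.84% and 8.01%. At 1 or more it was 26.6% and 26.7%, and without thinning the order turned, at 24.5% and 22.3%. Glul-high cells held less of the hepatocyte markers than cells without Glul, a median of 4.27% against 7.30% in chow and 4.55% against 8.41% in the NASH diet. In the class of hepatocyte-like clusters, called by the gate's UMI and marker limits applied to cluster medians, the Glul-high shares were 4.81% and 10.7%. Most cells of this class, 1662 of 1699 in chow and 1006 of 1067 in the NASH diet, were also in the gate. The hepatocytes of the diets lay in different clusters of that class: the cluster with the most chow cells held 930 chow and 9 NASH diet cells, and the cluster with the most NASH diet cells held 1 and 598.

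By mitochondrial share, the Glul-high share in chow stayed between 3.74% and 7.23% over 5 ranges, which were set after the data had been seen. In the NASH diet it was 4.85% (1.59 to 11.0) below 10% mitochondrial UMIs, 37.5% (21.1 to 56.3) of the 32 cells at 10% to 15%, 24.3% (17.7 to 32.1) at 15% to 20%, 11.5% (8.47 to 15.1) at 20% to 25%, and 3.39% (1.82 to 5.73) at 25% to 30%. The NASH diet share was thus the higher in the 3 middle ranges only, and the lower of the pair in the lowest and highest ranges, with overlapping intervals there. Cells with 25% to 30% were 383 of the 1049 NASH diet hepatocytes and 166 of the 1970 chow hepatocytes. The lines of Glul, Slc1a2, Oat, Cyp1a2 and Cyp2e1 all crossed. At 15% to 20%, Cyp2e1 stood at 3 or more UMIs in 30.4% of chow and 52.0% of NASH diet cells, and at 25% to 30% in 66.9% and 33.2%. Cyp2a5 was the higher in the NASH diet in 4 of the 5 ranges, with 22 of 148 cells (14.9%) against 1 of 988 (0.101%) at 15% to 20%, and was at 0 in both libraries below 10%. At 25% to 30% the Cyp2a5 intervals overlapped (0.146 to 4.28 in chow and 2.21 to 6.38 in the NASH diet). The part of the mitochondrial share in the diet differences was not tested.

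**Figure D3:**
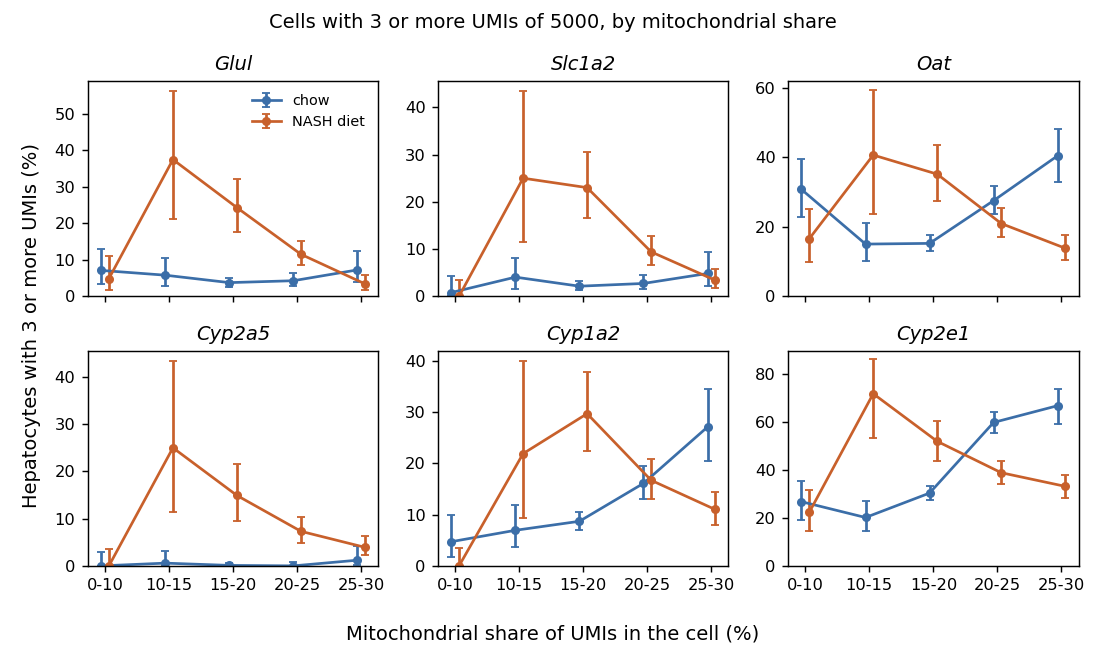
Share of hepatocytes (%) with 3 or more UMIs of 5000 for 6 of the genes, by the cell's mitochondrial share of UMIs (%), 1 library per diet, with exact 95% binomial intervals. The NASH diet line lies above the chow line from 10% to 20% for all 6 genes, and below it at 25% to 30% for each but Cyp2a5, with overlapping intervals there for Glul, Slc1a2 and Cyp2a5.

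Within each library, the summed levels of the other 9 genes were higher in Glul-high cells than in cells without Glul. The log2 ratio of thinned CPM was 1 or more for 9 of 9 genes in both libraries, against 5.88% of 8974 genes tested in chow and 5.98% of 8110 in the NASH diet. It was -1 or less for 0 of the 9, against 8.85% and 7.14% of the genes tested. The lowest of the 9 was Cyp2e1 in the NASH diet (2.53) and Axin2 in chow (1.85, from 5 UMIs in the Glul-high cells, 0.45 to 3.74 without the pseudocount). Axin2 in chow was 0.81 with at least 10000 UMIs, 0.92 with Glul-high at 1 or more UMIs and -3.28 at a mitochondrial share of 25% to 30%. The count was 8 or 9 of 9 in each alternative tried.

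Slc1a2 had the largest ratios of the 9 in both libraries. It stood at 553 CPM (487 to 627) in the Glul-high cells of chow and 4.29 CPM (2.91 to 6.09) in the cells without Glul, a log2 ratio of 6.71. In the NASH diet it stood at 1082 CPM (997 to 1172) against 5.46 CPM (3.38 to 8.35), giving a log2 ratio of 7.39, and no gene outside the 10 had as high a lower value over both libraries. Of the Glul-high cells, 64.4% (53.7 to 74.3) in chow and 81.8% (73.3 to 88.5) in the NASH diet had an Slc1a2 UMI, against 0.692% and 1.82% of the cells without Glul. Read the other way, 68.2% of Slc1a2-positive chow cells and 76.9% of NASH diet ones were Glul-high. Rhbg had log2 ratios of 4.54 and 5.64, the second over 2 UMIs in the cells without Glul (5.22 to 10.26 with no pseudocount). In the NASH diet 31 of its 34 positive cells (91.2%) were Glul-high, against 17 of 35 (48.6%) in chow.

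Oat reached beyond the Glul-high cells. It was in 94.4% of Glul-high cells in chow and 94.5% in the NASH diet, with log2 ratios of 3.96 and 5.24. It was also in 27.5% (25.2 to 29.8) of the chow cells without Glul but in 17.2% (14.6 to 20) of such NASH diet cells. The part of free RNA in these shares was not tested. At 3 or more UMIs of each, 51 of 51 Slc1a2 cells in chow also had Oat, and 90 of 91 (98.9%) in the NASH diet, while those cells were 12% and 41.9% of the Oat cells. The Slc1a2 cells were thus nearly all Oat cells, while many Oat cells lacked Slc1a2.

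The Wnt targets were read at low counts. Lgr5 was in 15 of 90 Glul-high cells in chow (16.7%, 9.64 to 26.0) and in 8 of 1446 cells without Glul (0.553%). In the NASH diet it was in 12 of 110 (10.9%, 5.77 to 18.3) and 2 of 769 (0.260%). Axin2 was in 4 of 90 Glul-high chow cells (4.44%, 1.22 to 11.0) and 10 of 110 NASH diet ones (9.09%, 4.45 to 16.1), with overlapping intervals. Of the cells without Glul it was in 15 of 1446 in chow (1.04%, 0.582 to 1.71), which overlaps the Glul-high interval, and in 2 of 769 in the NASH diet (0.260%). Tbx3 was in 38.9% and 42.7% of Glul-high cells against 5.95% and 4.94% of cells without Glul.

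Of the cytochromes, Cyp2e1 and Cyp1a2 extended over more cells than Cyp2a5. Cyp2e1 was in 97.8% of Glul-high cells in chow and 100.0% in the NASH diet, and also in 41.8% and 38.1% of the cells without Glul. Cyp1a2 was in 90.0% and 93.6% of Glul-high cells, and in 29.7% (27.3 to 32.1) and 17.3% (14.7 to 20.2) of cells without Glul. Cyp2a5 was in 32.2% (22.8 to 42.9) of Glul-high cells in chow and 77.3% (68.3 to 84.7) in the NASH diet, and in 1.59% and 6.24% of cells without Glul.

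**Figure D4:**
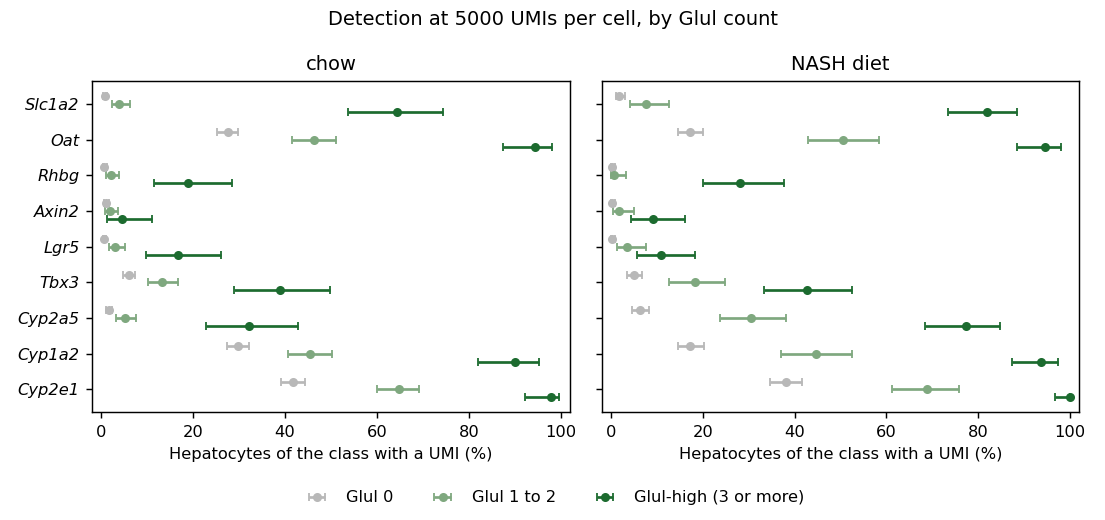
Share of hepatocytes (%) with a UMI of each gene at 5000 UMIs per cell, by Glul count (0, 1 to 2, and 3 or more), in the chow (left) and NASH diet (right) library, with exact 95% binomial intervals. The Glul-high points lie to the right for all 9 genes in both panels; Cyp2a5 moves from 32.2% in chow to 77.3% in the NASH diet.

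Comparing the diets among Glul-high cells alone left a smaller difference for most genes. Of the 9 genes other than Glul, 1 reached a log2 ratio of 1, against 7.18% of the 4427 genes tested in these cells, whose median was 0.13, and 0 reached -1, against 4.65%. That gene was Cyp2a5, at 95.6 CPM (69.2 to 129) in chow against 545 CPM (485 to 611) in the NASH diet, a log2 ratio of 2.50. Slc1a2 followed at 0.97, from 553 and 1082 CPM, with intervals apart, and Oat at 0.55, from 3624 CPM (3451 to 3805) and 5313 CPM (5122 to 5509). Cyp1a2 (0.24) and Cyp2e1 (0.28) differed little more than the median gene. For Rhbg (0.54), Axin2 (0.79), Lgr5 (-0.28) and Tbx3 (0.41) the counting interval of the ratio included 0. The Glul-high cells had a median mitochondrial share of 18.6% in chow and 20.1% in the NASH diet. The class was also not matched for Glul itself, whose log2 ratio within it was 0.36 (0.28 to 0.44). Its median count per cell of the class was 33 with the NASH diet but 13 with chow. How far this unequal Glul count accounts for the ratios of the other 9 genes was not tested.

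In the cells with 1 to 2 Glul UMIs (434 chow and 170 NASH diet cells), 2 of the 9 genes reached 1, against 5.31% of the 7301 genes tested, and 1 reached -1, against 4.60%. Cyp2a5 stood at 10.6 and 124 CPM (3.42) and Slc1a2 at 15.7 and 61.2 CPM (1.90). Rhbg, at -1.24, rests on 9 chow UMIs and 1 of the other library, and its interval without the pseudocount ran from -7.27 to 1.03. Cyp2a5 thus had the largest ratio in each Glul class.

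Among cells without Glul the genes went separate ways. Cyp2a5 was again higher in the NASH diet, 4.15 CPM in chow and 21.6 CPM in the NASH diet (log2 ratio 2.13), while Oat was lower, 231 and 139 CPM (-0.73), and so was Cyp1a2, 119.8 and 68.1 CPM (-0.80). Cyp2e1 stood at 909 and 941 CPM (0.05). Of the 9 genes, 1 (Cyp2a5) reached 1 and 1 (Axin2, at -1.14 from 17 and 2 UMIs, -5.33 to -0.10 without the pseudocount) reached -1, against 3.15% and 2.89% of the 9565 genes tested in these cells, whose median was 0.11. Oat was thus higher in the NASH diet in Glul-high cells and lower in the cells without Glul. Cyp1a2 was lower in the cells without Glul, while its ratio in Glul-high cells (0.24, 0.04 to 0.44) was near the median gene there (0.13). These cells had a median mitochondrial share of 18.4% in chow and 23.9% in the NASH diet.

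A zone coordinate built from other genes placed all 10 genes at the pericentral end. The coordinate was the summed UMIs of 10 pericentral genes such as Cyp2c29 and Aldh1a1, over those plus 12 periportal genes such as Cyp2f2 and Hal, in 5 equal bins of cells within each library. In both libraries 10 of 10 genes were highest in bin 5, the pericentral end, against 26.9% of the 11555 genes tested in chow and 31.3% in the NASH diet. The same 10 were highest there with 3 equal bins and with 5 bins at the same coordinate values. With the same coordinate values, Glul in the most pericentral bin stood at 1308 CPM in chow and 2961 CPM in the NASH diet. Bin 5 held 91.1% of the Glul-high cells of chow and 92.7% of those of the NASH diet. Glul-high cells made up 20.8% (16.9 to 25.2) of that bin in chow and 48.8% (41.8 to 55.8) in the NASH diet.

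The genes differed in how sharply they stopped at bin 5. Slc1a2 stood at 0, 0, 0, 3.55 and 156 CPM from bin 1 to bin 5 in chow, and at 1.90, 0.952, 0.952, 4.76 and 631 CPM in the NASH diet, so that bin 5 held 97.8% and 98.7% of its UMIs. Glul stood at 31.5, 28.9, 54.3, 71.1 and 1180.2 CPM in chow and at 24.8, 22.9, 34.3, 66.7 and 3314 CPM in the NASH diet. The intervals of bins 1 to 4 overlapped between the libraries, and the libraries parted in bin 5. Oat spread into bin 4, at 359 CPM (333 to 386) in chow against 231 CPM (203 to 262) in the NASH diet, with 1836 and 3652 CPM in bin 5. Cyp1a2 crossed in the same way, with 262 and 183 CPM in bin 4 and 513 and 748 CPM in bin 5.

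Cyp2e1 stood at 14.7, 22.3, 241, 2118 and 3953 CPM from bin 1 to bin 5 in chow. In the NASH diet it stood at 32.4, 61.9, 167, 2783 and 5634 CPM, the higher of the pair in each bin but bin 3. It was in 95.2% and 90.0% of the bin 4 cells. Cyp2a5 stood at 0, 0, 1.52, 2.03 and 45.2 CPM in chow and at 0, 3.81, 0.952, 37.1 and 425 CPM in the NASH diet. The bin 4 level in the NASH diet (26.4 to 50.8) was near the bin 5 level in chow (36.3 to 55.6), but the coordinate values of these bins overlap. Tbx3 also extended to bin 4, at 30.5 and 32.4 CPM, before 61.4 and 111 CPM in bin 5, while 89.7% and 87% of Lgr5 UMIs lay in bin 5. The median mitochondrial share of bin 5 was 20% in chow and 21.4% in the NASH diet, the closest pair of the 5 bins.

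**Figure D5:**
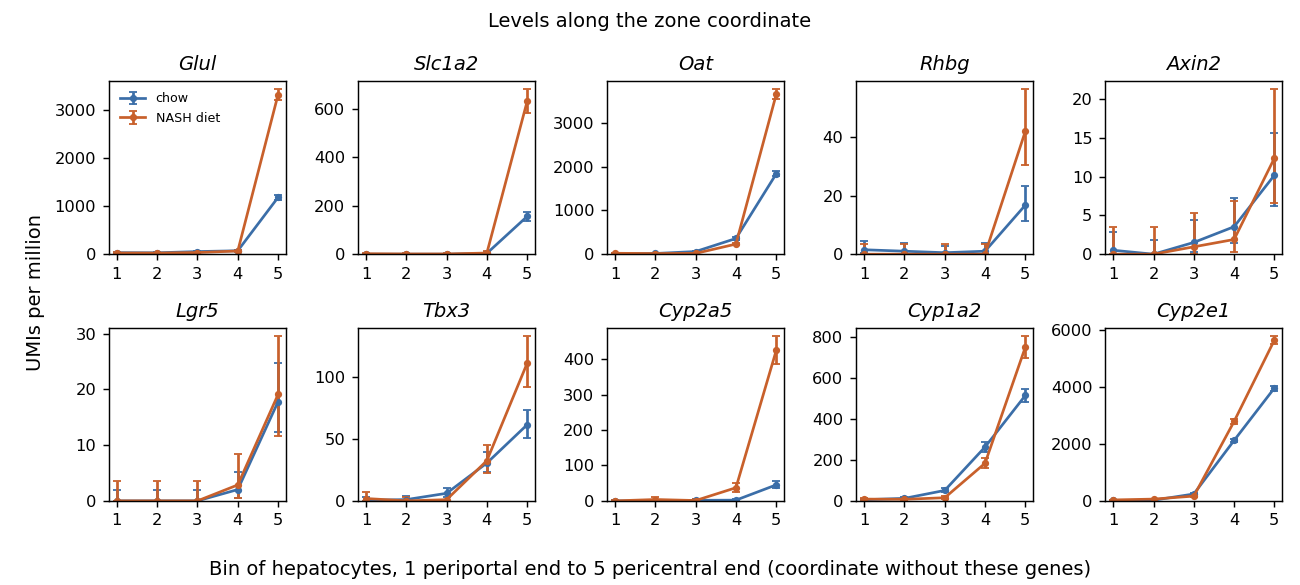
Level of each gene (CPM, each panel on its own scale from 0) in 5 equal bins of hepatocytes along the zone coordinate, from the periportal end (1) to the pericentral end (5), 1 library per diet, with exact 95% Poisson intervals. All 10 genes peak in bin 5 in both libraries, where Glul reaches 1180.2 CPM in chow and 3314 CPM in the NASH diet. Bins hold equal numbers of cells within each library, so their coordinate values differ between the libraries.

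The genes outside the 10 whose pattern was most like that of Glul were ranked by the lower of the log2 ratios, Glul-high over Glul 0, of the 2 libraries, among 5461 genes with at least 10 CPM in the Glul-high cells of both. They were Slc13a3, Cyp2c38, Cyp2c37, Slc22a3, Cyp2c69, Rcan2, Ces2c, Gstm2, Cib2 and Serpina7. Slc13a3, a carrier of dicarboxylates, led with 5.90 in chow and 6.32 in the NASH diet, from 133 and 100.0 CPM in Glul-high cells, and 9 UMIs and 1 UMI in the cells without Glul. Cyp2c37, which is also in the zone coordinate, had 3.97 and 4.49. Least like Glul were Aldh1b1, Hsd17b6, Hal, Tff3 and Cyp2f2. Hal, the periportal histidine ammonia-lyase, had -3.89 and -4.72, and Cyp2f2, a periportal P450, had -3.78 and -5.19. The Cyp2c genes are a family with similar transcripts, so their separate values are uncertain.

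Along the Wnt pathway, 3 of the ligand genes, Wnt2, Wnt9b and Rspo3, were read mainly outside the hepatocytes. Wnt2 had 52 UMIs in the chow endothelial cells (199.6 CPM, 149 to 262) and 81 in the NASH diet ones (212 CPM, 168 to 263). Rspo3, an R-spondin, had 15 UMIs (57.6 CPM, 32.2 to 95) and 44 UMIs (115 CPM, 83.6 to 154), with overlapping intervals, and Wnt9b had 13 and 8 UMIs. In the hepatocytes Wnt2 had 0 and 2 UMIs, Wnt9b 0 and 1, and Rspo3 0 and 7. Wnt5a had 44 and 13 UMIs in the hepatocytes and 0 in the endothelial cells of both libraries, where Rspo1 was also at 0. A count of 0 in these few endothelial cells leaves room for 11.5 CPM in chow and 7.84 CPM in the NASH diet. Both lie above the Wnt5a level in hepatocytes, 0.864 and 0.576 CPM, so these counts cannot tell which cells carried more of it. In the Kupffer cells, 74 in chow and 38 in the NASH diet, Rspo3 had 9 and 1 UMIs and Wnt2 4 and 2. The endothelial cells were few and were not divided into central vein and sinusoidal cells. Of the ligand list, 2 genes had enough hepatocyte UMIs for a ratio, Wnt5a (-0.24) and Porcn (-0.14), and neither was past 1 in either direction.

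Of 9 measured Wnt receptors in hepatocytes, 2 reached a log2 ratio of 1 and 0 reached -1, against 2.61% and 2.0% of all genes tested, with a median of 0.39 against 0.09. Fzd4 stood at 6.82 and 20.3 CPM (1.45) and Fzd8 at 3.81 and 10.5 CPM (1.25), while the co-receptor Lrp5 was at 16.0 and 8.81 CPM (-0.79) and Fzd1 at 2.73 and 4.52 CPM (0.56). Of 15 transduction genes 0 passed 1 in either direction, with a median of 0.07. The largest was Tcf7l1 (0.90), a TCF factor, and the others with the largest ratios were Bcl9 (-0.46), Gsk3a (0.37) and Tcf7 (0.32). Ctnnb1, which encodes beta-catenin and is named here after its value was seen, stood at 117 and 105 CPM (-0.16).

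Of 8 feedback inhibitors and other Wnt targets, 3 reached 1, 0 reached -1 and the median was 0.93, beside the same 2.61%, 2.0% and 0.09 over all genes tested. Tnfrsf19 had 26 chow UMIs against 101 (log2 ratio 1.86), Sp5, a transcription factor, 55 and 108 UMIs (1.47), and Nkd1, an inhibitor of Dishevelled, 3 and 37 UMIs (1.32, and 3.14 to 7.14 without the pseudocount). Ccnd1, cyclin D1, stood at 14.9 and 29.4 CPM (0.94). Sp5 stood at 8.89 CPM in Glul-high cells and 0.415 CPM in cells without Glul in chow, and at 27.3 and 0.780 CPM in the NASH diet, from few UMIs. Ccnd1 was the other way round, at 4.44 CPM in Glul-high cells and 14.9 CPM in cells without Glul in chow, and at 0 and 27.6 CPM in the NASH diet. Fzd4 stood at 6.67 and 6.64 CPM in these cells of chow, and at 16.4 and 19.8 CPM in those of the NASH diet. As for the 10 genes, these summed levels were taken over libraries with different mitochondrial shares, 18.5% and 23.5% at the median, whose part was not tested.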

How the data were processed

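Single liver cells were measured in 1 library per diet, grouped by the labelled treatment. The deposited matrices hold raw UMI counts per gene and barcode, with no normalization, per the file headers. Cell Ranger 3.1.0, Seurat and mm10 are named in the submitters' processing notes, while the matrix header gives version 3.0.2 (roles not given in the sources used here). Per the labels, libraries used the 10x 3' version 3 kit. A merged matrix was deposited too, whose chow entries sum to 86.4% of that library's own UMIs; it served as an alternative.

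The 10 genes, gene lists, gates and settings were chosen with earlier results of these data known. UMIs were summed over gated hepatocytes and divided by their total; CPM carry exact Poisson intervals, shares Clopper-Pearson intervals and ratios conditional binomial intervals, which use no pseudocount and leave out the spread between cells. Log2 ratios use log2(CPM + 1). Shares, Glul classes and the zone coordinate used cells thinned once to 5000 UMIs (seed 1). Genes with under 20 UMIs over both libraries were not tested. No doublet caller was used in the gate; Scrublet called 0 doublets by its own threshold, and leaving out its highest scores (139 chow and 15 NASH diet hepatocytes) was an alternative. Ratio and thinning steps were tested on simulated data. Lists are given in full counts; the genes named from each are up to 4 with the largest absolute ratio. Gene positions are from GENCODE on GRCm38, the same assembly as mm10. The UMI counts of a 3' kit are not scaled by transcript length, and levels of different genes were not ranked against each other. Python 3.11.15, numpy 2.4.6, scipy 1.17.1, pandas 2.3.3, scanpy 1.11.5 and igraph 0.11.9 were used.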

Additional observations from a re-analysis of the deposited data

How the results depend on the processing

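The number of the 10 genes with a diet log2 ratio of 1 or more was 5, and it was 3 as a mean over cells, 10 at a mitochondrial limit of 20%, 3 at a limit of 80% and 1 at a mitochondrial share of 25 to 30%, where 4 genes were at -1 or less. In that last range, chosen after the data had been seen, the ratio was below 0 for 8 of the 10 genes: Slc1a2 (-0.33), Oat (-0.67), Rhbg (-1.41), Lgr5 (-1.30), Axin2 (-1.18), Cyp1a2 (-1.17), Tbx3 (-0.79) and Cyp2e1 (-0.51). Glul stood at 0.19 and Cyp2a5 at 1.15. There the Axin2 ratio between Glul-high and Glul 0 cells turned in chow (-3.28), and the share of cells with a UMI, NASH diet minus chow in percentage points, was -33.2 for Cyp2e1, -30.8 for Oat, -28.9 for Cyp1a2, -10.6 for Glul and -4.60 for Slc1a2. The cause was not tested. The number of genes with a higher share in the NASH diet and intervals apart was 2, and it was 7 at the 20% limit, 4 with at least 10000 UMIs, 4 when thinned to 10000 UMIs, 5 at a mitochondrial share of 15 to 25% and 0 at 25 to 30%. Over all genes, neither number was counted in these other settings. The Cyp1a2 share difference turned to 7.46 percentage points at the 20% limit. Over 14 alternatives the diet log2 ratio ran from 0.19 to 2.54 for Glul and from 1.15 to 4.25 for Cyp2a5, above 0 in 14 of 14 for both, and above 0 in 13 of 14 for each of the other 8 genes. The merged matrix, the hepatocyte-like clusters, the Scrublet scores, the scaling to nuclear-encoded UMIs or to the median gene, and a lower UMI minimum left that number of genes at 5. Another thinning draw, the 15 to 25% and 25 to 30% ranges, levels from all UMIs and the equal weighting of 4 mitochondrial bins (4 genes at 1 or more) were added after the data had been seen. No paired analysis was possible because each diet has 1 library. Depth limits Rhbg, Axin2 and Lgr5, which had 120 to 238 UMIs per library.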

Other observations

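Beyond the Wnt pathway, 18 other pericentral genes had a median diet log2 ratio of 0.48, with 4 at 1 or more and 1 at -1 or less, against 2.61% and 2.0% of all genes tested. The 4 were Cyp7a1, the rate-limiting enzyme of bile acid synthesis, at 21.9 CPM in chow and 121 CPM in the NASH diet (2.42), Slc22a3, an organic cation carrier (1.84), Por, the reductase that feeds electrons to the P450 enzymes, at 79.8 and 276 CPM (1.78), and Nr1i3, the receptor CAR, at 43.6 and 107 CPM (1.27). The vasopressin receptor gene Avpr1a was lower, at 18.0 and 4.83 CPM (-1.71). Of 11 xenobiotic receptors and partners, 2 reached 1, the same Por and Nr1i3, and the median was 0.13. Over all genes tested the share at 1 or more was 2.61% and the median 0.09. In that list Nfe2l2 had 0.78.

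Of 16 periportal genes, 2 reached 1 and 1 reached -1, against 2.61% and 2.0% of all genes tested. The median was 0.38 against 0.09. Etnppl stood at 19 and 62.0 CPM (1.66), Aldh1b1 at 30.6 and 72.1 CPM (1.21), Ctsc, which encodes cathepsin C, at 143 and 60.3 CPM (-1.23) and Cdh1, E-cadherin, at 44.1 and 22.6 CPM (-0.93). Of 16 genes of ammonia, glutamate, ornithine and proline handling outside the 10, 0 reached 1 and 1 reached -1, beside the same shares. The gene at -1 or less was Slc38a2, an amino acid carrier, at 212 and 91.4 CPM (-1.20). The median of that list was 0.35, and Gpt (0.93), Prodh (0.86) and Aldh4a1 (0.71) followed in size. These are values of 1 library per diet, with no test, and the mitochondrial shares given above apply to them too.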
